A study of Mus musculus with 28 samples.

Results

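The genes that encode core subunits of Polycomb repressive complex 1 were followed through the H3K27ac peak tables of mouse male germ cells. H3K27ac, acetylation of lysine 27 on histone H3, marks active promoters and enhancers. The genes were Ring1, Rnf2, Bmi1, Pcgf1, Pcgf2, Pcgf5, Pcgf6, Rybp, Cbx2 and Phc1, 10 of the 17923 gene symbols that the tables list alone. Their peaks were those given under each symbol alone, and a promoter peak was one within 1 kb of a start listed under that symbol alone. Of the 471458 H3K27ac peaks in the series, 302 carried a symbol of these genes alone, 143 lay at their listed starts, and 314 met at least 1 of these conditions.

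Polycomb repressive complex 1 places a single ubiquitin on histone H2A through a RING1 or RNF2 subunit, and it keeps developmental genes silent. Each complex holds 1 PCGF protein. Canonical complexes with PCGF2 or BMI1 also contain a CBX protein, which binds the histone mark left by Polycomb repressive complex 2, and a PHC protein, whereas variant complexes carry RYBP or YAF2 instead. SCML2, the product of the gene deleted in this series, is a germline protein that binds Polycomb repressive complex 1 and acts on gene silencing during spermatogenesis.

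The 12 H3K27ac libraries were made by ChIPmentation, in which a transposase adds sequencing adapters to immunoprecipitated chromatin, from testis cells of C57BL/6 mice. The 6 groups of 2 replicates were wild type (WT) Thy1+ spermatogonia at postnatal day 7, WT c-Kit+ spermatogonia of the same age, Scml2-KO Thy1+ spermatogonia at postnatal day 7, Scml2-KO c-Kit+ spermatogonia of the same age, adult Scml2-KO pachytene spermatocytes (PS) and adult Scml2-KO round spermatids (RS). The cells had been purified by STA-PUT sedimentation or by magnetic separation, and 16 input libraries covered the same stages and genotypes plus PS and RS of WT mice. No H3K27ac library of WT adult cells was analysed here. Every adult value thus comes from Scml2-KO mice, and stage and age of the mice cannot be told apart. The labels do not describe the deleted allele, and nothing in them says that replicates came from separate animals, so p-values measure the spread between these libraries, which may be technical.

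Fold enrichment, the unit used throughout, is the deposited ratio of the peak's height to a background height of its library, each increased by 1. The H3K27ac libraries held 17877 to 73316 peaks and the inputs 359 to 1192. Read depth is unknown. The background height, which rises with depth, ranged from 0.564 to 1.62, so tests between groups used values set relative to the median region of the library (centred values). Replicate 1 had the higher promoter fold enrichment in 43 of the 49 pairs of a gene and a group in which both libraries were called. Thy1+ KO replicate 1 stood apart from its partner, with a median promoter fold enrichment of 14.7 over all genes against 9.59.

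The labelled stages were checked against promoter peaks of marker genes. All 6 round spermatid genes with a listed start, which include the protamine and transition protein genes Prm1, Tnp1 and Tnp2, were called in both RS libraries, and also in both PS libraries. In the spermatogonial libraries 1 of them was called in Thy1+ WT replicate 1 and none in the other 7. All 6 spermatocyte genes were called in every PS and RS library and 1 to 4 in the spermatogonial ones. Of 8 spermatogonial genes, 1 to 6 were called in the spermatogonial libraries and 4 to 7 in the adult ones, so peak calls at these promoters did not set spermatogonia apart. Sertoli cell promoters (5 genes with a listed start) were called in 1 to 4 of 5 in the spermatogonial libraries, in 5 of 5 in both PS libraries and in 3 of 5 in both RS libraries. Leydig and peritubular promoters were called in 1 to 4 of 5 and blood and endothelial ones in 1 to 4 of 4. The part of other cells in the results below was not tested.

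Scml2, the deleted gene, is on the X chromosome and offered no check of the genotype labels. Its promoter was called in 1 of 2 libraries each of Thy1+ KO and c-Kit+ KO cells and in both PS KO libraries, and in no WT library. Its exons carried 18 narrow peaks of 144 to 244 bp, 9 in WT and 9 in KO libraries, spread over 7 of the 8 spermatogonial libraries with fold enrichments of 3.78 to 9.05. No adult library and no input had an exon peak of Scml2.

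Promoter peaks were a common property of these genes. Of the 10, 7 (Ring1, Rnf2, Bmi1, Pcgf1, Pcgf2, Rybp and Phc1) had a promoter peak in all 12 libraries, where 48.8% of all listed genes did. Pcgf6 was called in 10 libraries, Cbx2 in 9 and Pcgf5 in none at its listed start. Together, 103 of the 120 combinations of gene and library had a promoter peak. No input library had a peak within 1 kb of a listed start of the 10 genes.

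**Figure D1:**
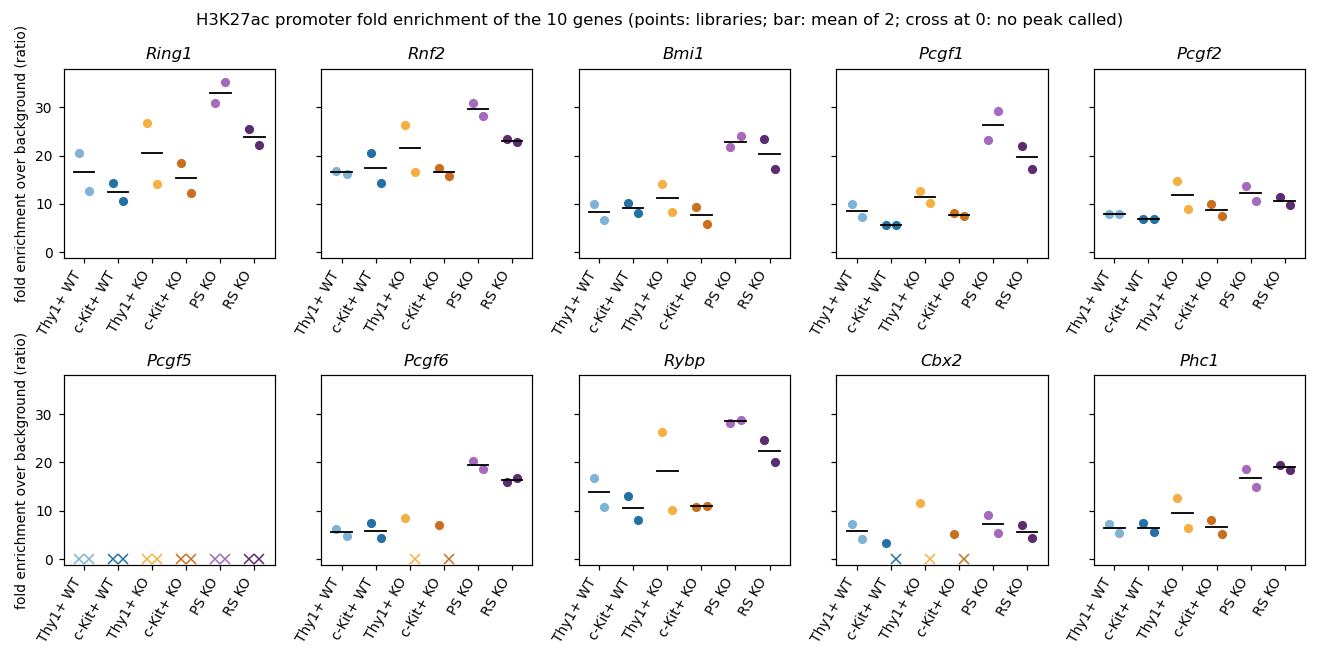
Promoter fold enrichment (a ratio) of each of the 10 genes on the vertical axis, by group on the horizontal axis; points are libraries, bars are means of 2 libraries, and a cross at 0 marks a library with no promoter peak. Bmi1, Pcgf1 and Phc1 lie higher in all 4 adult KO libraries than in all 8 spermatogonial libraries, as do 22.3% of the 8687 promoters called in all 12 libraries. Pcgf2 and Cbx2 overlap between the stages, and Pcgf5 has no peak at its listed start.

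Promoter sequences are shown for the genes whose promoter regions changed (Bmi1, Phc1 and Pcgf2) and for Ring1, whose promoter did not pass the test in any comparison. They are RefSeq sequences of GRCm38.p6, 250 bases before to 50 after the start, at chr2:18676768-18677067 (+) for Bmi1, chr6:122340178-122340477 (−) for Phc1, chr11:97699599-97699898 (−) for Pcgf2 and chr17:34024631-34024930 (−) for Ring1. Capitals mark every match, on either strand, to CACGTG (the E-box of MYC, MAX and MGA), TTCCCGC (E2F), AACNGNC (MYB), TGACGTCA (the cyclic AMP response element) or CCAAT (NF-Y). No marked matches overlap. The RefSeq table matched 7 of the 10 genes and had no entry for Pcgf1, Rybp and Cbx2.
Bmi1: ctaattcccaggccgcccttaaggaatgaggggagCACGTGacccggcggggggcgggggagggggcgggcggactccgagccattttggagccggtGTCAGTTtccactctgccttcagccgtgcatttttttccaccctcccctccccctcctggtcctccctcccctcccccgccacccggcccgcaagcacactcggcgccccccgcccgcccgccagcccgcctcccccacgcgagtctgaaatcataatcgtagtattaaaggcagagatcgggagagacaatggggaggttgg
Phc1: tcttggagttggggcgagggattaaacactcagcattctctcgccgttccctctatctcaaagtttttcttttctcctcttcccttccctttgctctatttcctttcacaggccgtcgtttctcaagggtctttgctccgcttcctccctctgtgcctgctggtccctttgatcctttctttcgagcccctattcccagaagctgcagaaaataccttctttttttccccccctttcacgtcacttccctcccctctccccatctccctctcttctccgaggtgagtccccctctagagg
Pcgf2: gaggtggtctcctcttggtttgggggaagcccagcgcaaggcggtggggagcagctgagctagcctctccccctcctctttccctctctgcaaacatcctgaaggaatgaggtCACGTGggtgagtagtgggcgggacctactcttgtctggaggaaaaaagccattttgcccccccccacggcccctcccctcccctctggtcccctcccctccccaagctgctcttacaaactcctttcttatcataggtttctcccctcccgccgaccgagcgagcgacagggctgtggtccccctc
Ring1: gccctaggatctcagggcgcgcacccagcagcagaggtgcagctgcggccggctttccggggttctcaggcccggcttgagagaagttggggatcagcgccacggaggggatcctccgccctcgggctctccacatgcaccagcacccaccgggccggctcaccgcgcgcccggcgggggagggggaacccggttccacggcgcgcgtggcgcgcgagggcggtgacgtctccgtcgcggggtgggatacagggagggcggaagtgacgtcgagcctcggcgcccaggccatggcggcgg

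The E-box letters were present in both Bmi1, 215 bases before the start, and Pcgf2, 137 bases before it, although these promoters differed in the direction of change given below. The same letters occurred in 7.15% of the 32851 promoters of the same length. Bmi1 also held a MYB match on the other strand 153 bases before the start, as did 32.8% of all promoters on either strand. Phc1 and Ring1 held no match to any of the 5 motifs. The 4 promoters differed in CpG content, with 37 CpG dinucleotides in Ring1, 23 in Bmi1, 10 in Pcgf2 and 9 in Phc1, where the median promoter had 7.

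The catalytic subunits had the highest promoter means of the 10 genes in all 6 groups. Ring1, an E3 ubiquitin ligase for histone H2A, had fold enrichments of 20.4 and 12.7 in Thy1+ WT, 14.3 and 10.5 in c-Kit+ WT, 26.8 and 14.1 in Thy1+ KO, 18.4 and 12.2 in c-Kit+ KO, 30.9 and 35.2 in PS KO, and 25.4 and 22.2 in RS KO (chr17, start 34024680 on the minus strand). PS values were above those of all other libraries, but RS values overlapped those of Thy1+ KO. Rnf2, the paralogous ligase, had 16.8 and 16.3 in Thy1+ WT, 20.5 and 14.3 in c-Kit+ WT, 26.3 and 16.6 in Thy1+ KO, 17.5 and 15.7 in c-Kit+ KO, 30.9 and 28.3 in PS KO, and 23.5 and 22.7 in RS KO. Its pattern was like that of Ring1, with PS highest and RS within the spermatogonial range. In every library the tables named the Ring1 promoter peak jointly with a neighbouring gene, so that under peaks named for Ring1 alone its promoter would have had no peak at all, and 91 of the 120 combinations would have been called.

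The PCGF subunits decide which form of the complex assembles. Bmi1, a PCGF protein of the canonical complex needed for self-renewal of several stem cell types, had 9.96 and 6.64 in Thy1+ WT, 10.3 and 8.06 in c-Kit+ WT, 14.2 and 8.31 in Thy1+ KO, 9.46 and 5.83 in c-Kit+ KO, 21.7 and 24.0 in PS KO, and 23.5 and 17.3 in RS KO. Pcgf2, the close relative of Bmi1, had 7.86 and 7.84, 6.84 and 6.82, 14.7 and 8.95, 9.93 and 7.58, 13.7 and 10.7, and 11.3 and 9.74 in the same order of groups. The adult values of Bmi1 lay above all spermatogonial ones, whereas those of Pcgf2 lay within them. Pcgf1, the PCGF protein of the variant complex with KDM2B and BCOR, had 9.96 and 7.24, 5.70 and 5.58, 12.7 and 10.2, 8.04 and 7.58, 23.3 and 29.3, and 21.9 and 17.3. Pcgf6, the PCGF protein of the variant complex with MGA and L3MBTL2, which represses germline genes in embryonic stem cells, had 6.29 and 4.83 in Thy1+ WT and 7.41 and 4.34 in c-Kit+ WT. It was called in 1 library each of Thy1+ KO (8.61) and c-Kit+ KO (7.09), and reached 20.2 and 18.7 in PS KO and 16.0 and 16.8 in RS KO. Pcgf1 and Pcgf6 were thus both higher in all 4 adult libraries than in any spermatogonial library that was called. Of all 8687 promoters called in all 12 libraries, 22.3% were higher in every adult than in every spermatogonial library. Pcgf6 is not among those promoters.

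Rybp, the subunit of variant complexes that also binds ubiquitinated histone H2A, had promoter values of 16.8 and 10.9 in Thy1+ WT, 13.1 and 8.06 in c-Kit+ WT, 26.3 and 10.2 in Thy1+ KO, 10.9 and 11.1 in c-Kit+ KO, 28.2 and 28.8 in PS KO, and 24.6 and 20.0 in RS KO. The 2 Thy1+ KO libraries differed by more than any other pair of replicates of this gene. Phc1, a subunit that polymerises through its SAM domain and compacts Polycomb chromatin, had 7.34 and 5.43, 7.41 and 5.58, 12.7 and 6.40, 8.04 and 5.25, 18.7 and 14.9, and 19.6 and 18.4 in the same order. Adult values of Phc1 did not overlap with the spermatogonial ones. Cbx2, the CBX protein that compacts chromatin and is needed for male sex determination, had the lowest promoter mean of the genes called in both adult groups, with 7.34 and 4.22 in Thy1+ WT, 3.42 in 1 c-Kit+ WT library, 11.6 in 1 Thy1+ KO library, 5.20 in 1 c-Kit+ KO library, 9.15 and 5.33 in PS KO, and 7.04 and 4.33 in RS KO. Cbx2 showed no separation between stages.

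Within PS KO the order of mean promoter fold enrichment was Ring1 (33.0 ± 3.04), Rnf2 (29.6 ± 1.86), Rybp (28.5 ± 0.405), Pcgf1 (26.3 ± 4.29), Bmi1 (22.9 ± 1.60), Pcgf6 (19.4 ± 1.10), Phc1 (16.8 ± 2.66), Pcgf2 (12.2 ± 2.17) and Cbx2 (7.24 ± 2.70; SD, n = 2 for each). The libraries of neighbours in this order did not overlap between Bmi1 and Pcgf6, between Phc1 and Pcgf2 and between Pcgf2 and Cbx2, Ring1 and Rnf2 met at 30.9, and the other neighbours overlapped. In Thy1+ WT the order started with Ring1 (16.6 ± 5.49) and Rnf2 (16.5 ± 0.34) and ended with Phc1 (6.38 ± 1.35), Cbx2 (5.78 ± 2.20) and Pcgf6 (5.56 ± 1.03; SD, n = 2 for each).

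The first question was whether loss of Scml2 went with a change of H3K27ac at these genes in spermatogonia. No change was detected. None of the 9 regions of the genes that could be tested (7 promoters and 2 regions of Pcgf5) passed an adjusted p of 0.05 for KO against WT with population as a covariate (limma, 8 libraries, Benjamini-Hochberg adjustment over 9585 regions), and 0% of all regions did. At an unadjusted p under 0.05, 0 of the 9 regions and 502 of all regions passed. The 7 promoter changes ranged from −0.21 to 0.17 in log2, with a median of −0.01, where the median of all regions was −0.04. Bmi1 had the smallest p of the promoters, with a log2 change of −0.21 ± 0.15 (SE) and an adjusted p of 0.967 in limma. The sign of this value turned without centring (0.063). Of all 9 regions, the one upstream of the listed start of Pcgf5 had the smallest p. Its log2 change was 0.31 ± 0.16 (SE), with an adjusted p of 0.935 in limma.

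The difference between the KO effects in c-Kit+ and Thy1+ cells did not pass either, at these genes (0 of 9, with 0 at an unadjusted p under 0.05) or elsewhere (0% of 9585 regions in limma, with 453 at an unadjusted p under 0.05). The smallest p among the promoters was that of Pcgf1, with a difference of 0.49 ± 0.32 (SE) in log2 and an adjusted p of 0.998. Its replicate values of 5.70 and 5.58 in c-Kit+ WT were the lowest of its 12.

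The second question was whether the genes differed between Thy1+ spermatogonia, which include the undifferentiated cells, and c-Kit+ spermatogonia, which are differentiating. None of the 9 regions passed in limma, with 0 at an unadjusted p under 0.05, where 1.09% of all regions passed in either direction. The 7 promoter changes ranged from −0.30 to 0.13 in log2. Pcgf1 had the smallest p, with a change of −0.30 ± 0.16 (SE) from Thy1+ to c-Kit+ cells and an adjusted p of 0.428.

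Between the c-Kit+ and PS stages of Scml2-KO cells, H3K27ac at Pcgf1 rose and at Pcgf2 fell relative to the median region. In the tested regions Pcgf1 went from 7.81 ± 0.33 to 26.3 ± 4.29 in fold enrichment (SD, n = 2), a centred log2 change of 0.67 ± 0.20 (SE; limma adjusted p = 0.0237). Pcgf2 went from 8.76 ± 1.66 to 12.2 ± 2.17 (SD, n = 2), which is a centred change of −0.60 ± 0.21 (SE; limma adjusted p = 0.0407), since the median region of PS lay higher still. Over all 12501 regions 6.83% rose and 25.1% fell, and of the 9 regions of the genes 1 rose and 1 fell. Bmi1 missed the threshold with a change of 0.54 ± 0.20 (SE; limma adjusted p = 0.0531). Under quantile normalization, by height times length, or without PS KO replicate 2, none of the 9 regions passed. Without c-Kit+ KO replicate 2, none of 16882 regions passed, and the change of Pcgf1 was 0.86. Both genes also missed the threshold without c-Kit+ KO replicate 1 (adjusted p = 0.0626 for Pcgf1 and 0.0765 for Pcgf2) and with uncalled libraries at their lowest value (0.98, adjusted p = 0.0542, and −0.29, adjusted p = 0.434). Pcgf2 missed it as well where peaks were joined only at an overlap of 50% of the shorter peak (adjusted p = 0.0623).

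When both adult Scml2-KO groups were set against both spermatogonial ones, the promoters of Bmi1, Pcgf1 and Phc1 rose. Bmi1 changed by 0.58 ± 0.13 (SE; limma adjusted p = 0.00217), Pcgf1 by 0.58 ± 0.15 (adjusted p = 0.00515) and Phc1 by 0.54 ± 0.14 (adjusted p = 0.00547) in centred log2 fold enrichment. Of all 10287 regions, 12.8% rose and 27.8% fell, and of the 8628 regions within 1 kb of a start 13.8% rose and 24.2% fell. The 3 genes held their calls under all alternatives that could be computed for them, with log2 changes of 0.44 to 1.29. The median change of the 7 promoters was 0.23 and that of all promoter regions −0.08. As deposited, without centring, the 4 adult libraries all exceeded the 8 spermatogonial ones at Bmi1, Pcgf1 and Phc1, 3 of the 7 promoters called in every library, while 22.3% of the 8687 such promoters of all genes did so.

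Pcgf2 depended on how its region was drawn. In the regions merged over these libraries its peak was joined with that of its neighbour Psmb3, a proteasome subunit gene, into 1 region of 6292 bp whose log2 change was 0.23 ± 0.14 (SE; limma adjusted p = 0.215). When each gene was instead read from the highest summit within 1 kb of its own starts, a reading chosen after seeing the data, Pcgf2 fell by 0.52 in log2, with an SE of 0.13 (limma adjusted p = 0.00286 over 9247 genes). It also fell where peaks were joined only at an overlap of 50% of the shorter peak (−0.50, adjusted p = 0.00781), which separated the 2 genes. Read from summits, Bmi1, Pcgf1 and Phc1 rose by 0.56, 0.56 and 0.52, and Pcgf2 fell. These were 3 higher and 1 lower of 7 genes, where 1315 of all 9247 genes were higher and 2472 lower. The fall of Pcgf2 was relative to other promoters. In deposited fold enrichment the means of Pcgf2 were 11.8 ± 4.05 in Thy1+ KO, 8.76 ± 1.66 in c-Kit+ KO, 12.2 ± 2.17 in PS KO and 10.5 ± 1.14 in RS KO (SD, n = 2), which overlap.

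**Figure D2:**
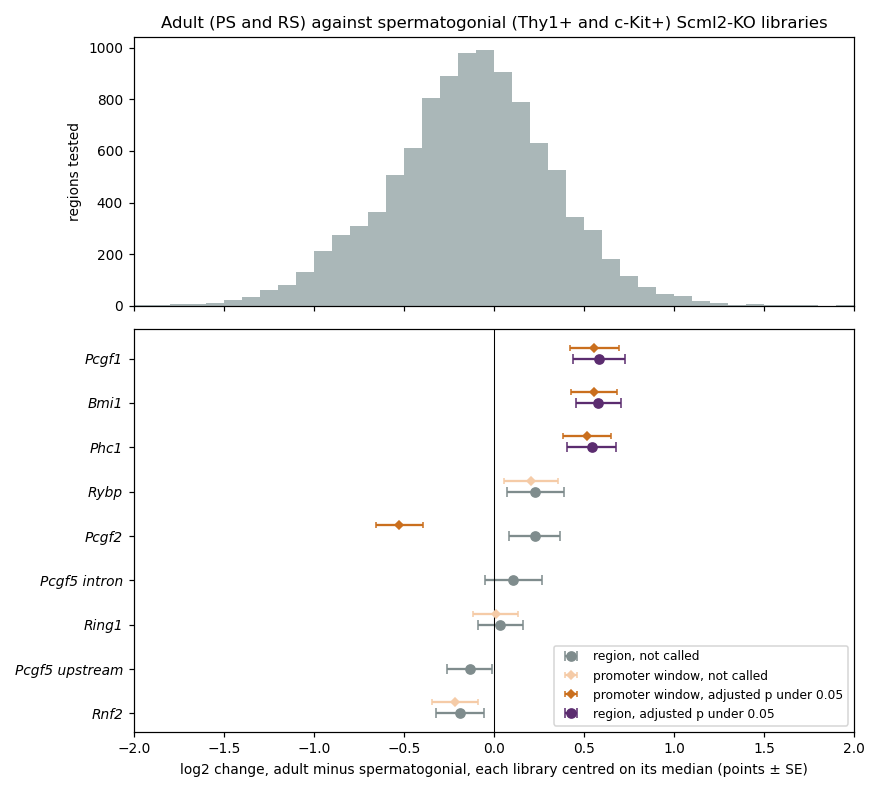
Upper panel: number of regions (vertical axis) by log2 change from spermatogonial to adult Scml2-KO cells (horizontal axis) over all 10287 regions tested, with changes beyond ±2 outside the view. Lower panel: the same change for the 9 regions of the genes (circles) and for their promoter windows (diamonds), each with its SE; Bmi1, Pcgf1 and Phc1 lie between 0.52 and 0.58 in both readings, and Pcgf2 at 0.23 as a joined region and at −0.52 in its own window.

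The direction over all regions followed from the centring, and this touches each value above. Without centring, 5132 of 10287 regions rose and 123 fell from spermatogonia to adult cells, and the share of calls that were higher went from 31.5% to 97.7%. In the PS against c-Kit+ comparison the same step gave 8841 higher and 99 lower calls of 12501 regions, 98.9% higher against 21.4%. Without centring 7 of the 9 regions of the genes rose in the adult comparison and 8 of 9 in the PS comparison. Bmi1, Pcgf1 and Phc1 passed with and without centring in the adult comparison. As deposited, the median ratio of adult to spermatogonial fold enrichment was 2.41 over the 7 promoters of these genes called in all libraries and 1.72 over the 8687 of all genes.

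The promoter peaks also covered more sequence in adult cells. Bmi1 was covered over 612 to 1685 bp in the spermatogonial libraries and 2429 to 2914 bp in the adult ones, with no overlap. Pcgf1 covered 526 to 1371 bp and 1853 to 2495 bp, and Phc1 872 to 1871 bp and 2077 to 3225 bp. Pcgf2, too, covered more in every adult library (3129 to 3691 bp) than in every spermatogonial one (762 to 2864 bp). So did Ring1 (2007 to 6002 bp against 923 to 1899 bp) and Pcgf6 (2345 to 2770 bp against 0 to 1229 bp). Covered lengths overlapped between the stages for Rybp (1005 to 2324 bp against 2048 to 2575 bp), Rnf2 (1049 to 1893 bp against 1703 to 2550 bp) and Cbx2 (0 to 1330 bp against 697 to 1295 bp). Over all genes called, the median covered length of a promoter was also greater, 907 to 1399 bp in the spermatogonial libraries and 1674 to 1925 bp in the adult ones. The share of all genes whose lengths did not overlap was not computed, and no test was made.

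**Figure D3:**
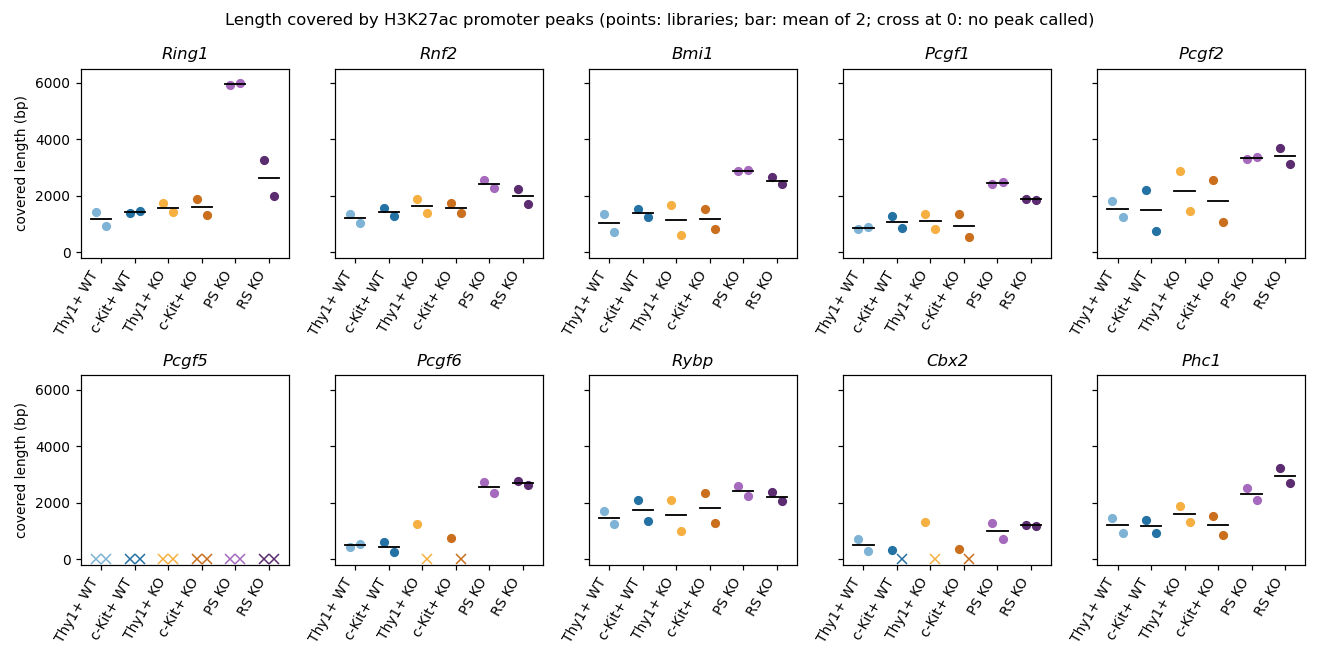
Length covered by promoter peaks (bp, vertical axis) for each of the 10 genes by group (horizontal axis); points are libraries, bars are means of 2 libraries, and a cross at 0 marks no promoter peak. Ring1 reaches 6002 bp in PS KO, where its peak extends over the neighbouring gene. Ring1, Bmi1, Pcgf1, Pcgf2, Pcgf6 and Phc1 are wider in all adult libraries than in all spermatogonial ones, where the share of all genes that are so was not computed.

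Pcgf5, the PCGF protein of a variant complex with AUTS2, had no peak at its listed start (chr19, position 36379067) but 2 strong regions elsewhere, each called in all 12 libraries. The first, chr19:36347617-36349991, lies 29076 bp upstream of the listed start and was classed as intergenic in the tables. The second, chr19:36409000-36410764, lies 29933 bp inside the gene and was classed as intronic. Both cover a RefSeq start of Pcgf5 that the tables do not list, at positions 36348329 and 36409748. Of the regions of the 10 genes over 1 kb from a listed start, these 2 were the ones called in every library.

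The sequences at the 3 RefSeq starts of Pcgf5 are shown because only the outer 2 carried acetylation; this set was chosen after the values were seen. They lie at chr19:36348079-36348378 (upstream start), chr19:36378817-36379116 (listed start) and chr19:36409498-36409797 (inner start), all on the plus strand, with capitals as above.
Pcgf5 upstream start: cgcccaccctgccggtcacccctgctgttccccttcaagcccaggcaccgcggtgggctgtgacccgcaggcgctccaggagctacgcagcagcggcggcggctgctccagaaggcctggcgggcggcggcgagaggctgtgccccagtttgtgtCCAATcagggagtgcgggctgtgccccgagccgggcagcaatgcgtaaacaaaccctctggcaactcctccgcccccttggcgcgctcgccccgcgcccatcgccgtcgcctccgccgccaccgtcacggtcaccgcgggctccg
Pcgf5 listed start: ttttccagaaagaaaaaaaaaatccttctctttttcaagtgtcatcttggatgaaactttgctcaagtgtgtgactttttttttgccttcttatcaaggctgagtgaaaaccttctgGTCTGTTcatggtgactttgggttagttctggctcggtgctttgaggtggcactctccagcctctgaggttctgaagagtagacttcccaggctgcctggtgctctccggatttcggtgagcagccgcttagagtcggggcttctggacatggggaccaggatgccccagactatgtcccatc
Pcgf5 inner start: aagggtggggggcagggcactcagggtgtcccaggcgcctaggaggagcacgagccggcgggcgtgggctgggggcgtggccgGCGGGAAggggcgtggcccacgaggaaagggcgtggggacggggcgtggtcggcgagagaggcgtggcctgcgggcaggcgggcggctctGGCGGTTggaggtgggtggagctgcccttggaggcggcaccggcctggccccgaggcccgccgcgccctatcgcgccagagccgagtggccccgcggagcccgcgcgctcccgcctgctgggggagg

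The upstream and inner starts held 34 and 35 CpG dinucleotides and 73.0% and 78.7% G and C, whereas the listed start, without a peak, held 5 and 48.3%. The upstream start had a CCAAT match 95 bases before it, letters that 37.4% of all promoters hold. The inner start had an E2F match on the other strand 167 bases before it, found in 4.60% of promoters, and a MYB match.

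Fold enrichment at the upstream region was 8.91 and 6.64 in Thy1+ WT, 10.8 and 5.58 in c-Kit+ WT, 19.7 and 10.9 in Thy1+ KO, 10.4 and 8.16 in c-Kit+ KO, 17.5 and 21.3 in PS KO, and 16.8 and 13.0 in RS KO. The inner region had 8.38 and 6.64, 7.98 and 5.58, 18.2 and 6.40, 7.57 and 6.41, 17.2 and 16.0, and 15.3 and 11.9 in the same order. Thy1+ KO replicate 1 was the highest library of the inner region and was exceeded only by PS KO replicate 2 in the upstream one. Neither passed in any of the 6 comparisons. From spermatogonial to adult KO cells the upstream region changed by −0.14 ± 0.13 and the inner region by 0.11 ± 0.16 (SE; limma adjusted p = 0.412 and 0.613).

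**Figure D4:**
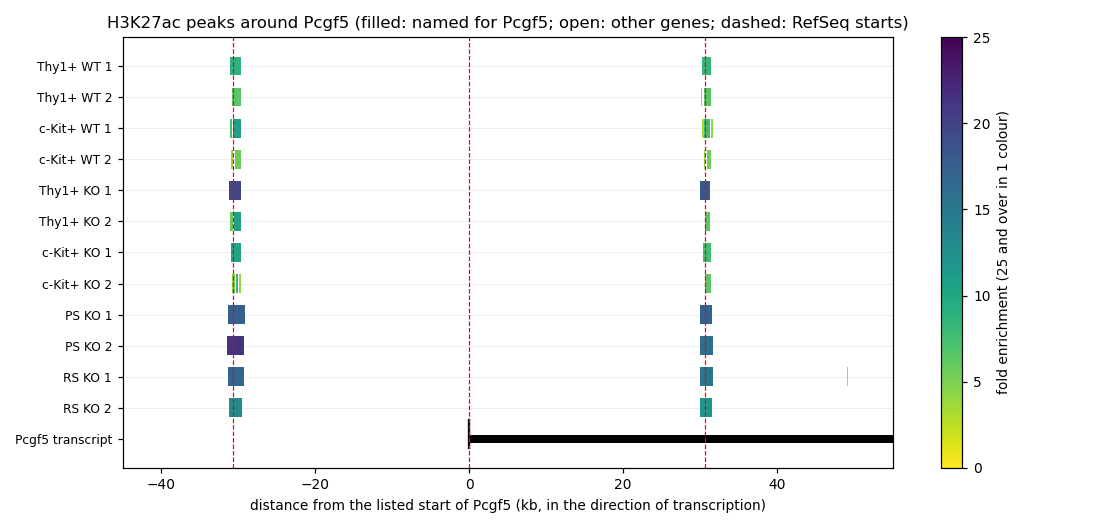
Peaks around Pcgf5 in the 12 libraries (rows), by distance in kb from the listed start in the direction of transcription (horizontal axis), coloured by fold enrichment; dashed lines mark the 3 RefSeq starts. Every library has peaks at the 2 outer starts and none at the listed start.

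Over 1 kb from their listed starts, the 10 genes had 171 peaks, 45 in the 8 spermatogonial libraries and 126 in the 4 adult ones. Of the 171, 72 were classed as intergenic, 61 as intronic, 24 as exonic and 14 as upstream. Pcgf5 gave 34 of the 171, 25 in spermatogonial and 9 in adult libraries, nearly all at its 2 unlisted RefSeq starts. The counts and ratios below include these peaks of Pcgf5. The KO spermatogonial libraries held 4 to 8 peaks over 1 kb from a listed start each and the adult ones 29 to 35, a mean ratio of 5.04. Set against all peaks over 1 kb from a start, the genes had 0.270 to 0.733 per 1000 in the spermatogonial libraries and 0.585 to 0.668 per 1000 in the adult ones, which overlap. With the same number of strongest peaks taken from each library the ratio was 2.00. All peaks over 1 kb from a start then numbered 5457 to 7056 in the spermatogonial and 7038 to 7628 in the adult libraries. Per 1000 of these, the genes had 0.425 to 0.800 and 0.822 to 1.34, which do not overlap. These shares rest on 3 to 5 and 6 to 10 peaks per library, and the difference was not tested.

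These peaks merged into 32 regions called in at least 2 libraries. Of them 24 were called in adult libraries only, 4 in spermatogonial libraries only and 4 in both, and over all such regions of the series 58.4% were adult only. Rnf2 and Rybp held most of the peaks, with 46 and 47. All 47 peaks of Rybp were intergenic, and up to 501531 bp from its start, and their assignment to Rybp is that of the tables. Of the 3 input peaks given under these symbols, all were intergenic ones of Rybp, and 1 (chr6:99851205-99851347) overlapped 3 spermatogonial H3K27ac peaks.

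From PS to RS in Scml2-KO cells, no promoter of the genes changed, but 4 regions away from promoters rose. The 9 promoter changes ranged from −0.28 to 0.38 in log2 and the smallest adjusted p was 0.250 in limma. Over all 21329 regions 12.4% rose and 7.79% fell, and of the 9867 regions over 1 kb from a start 21.3% rose. The 4 were among 11 such regions of the genes that could be tested.

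The first of the 4 was a region in the last part of the Rnf2 gene, chr1:151472978-151476528, 24295 bp from the start. It had fold enrichments of 5.34 and 4.27 in PS KO and 11.0 and 8.66 in RS KO and no peak in a spermatogonial library, and it rose by 1.22 ± 0.21 in log2 (SE; limma adjusted p = 0.00884). A second region of Rnf2, chr1:151516970-151518704, lies 16147 bp upstream of the start, and no RefSeq gene overlaps it. Its values were 5.72 and 5.33 in PS KO and 9.00 and 7.57 in RS KO, a rise of 0.77 ± 0.19 (SE; adjusted p = 0.0227). In the same cells the Rnf2 promoter changed by −0.16 ± 0.20 (SE; adjusted p = 0.618).

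Ring1 showed a like arrangement. The region chr17:34020663-34023158 covers the 3′ part of this short gene, had 5.72 and 7.46 in PS KO and 11.0 and 9.20 in RS KO, and rose by 0.81 ± 0.20 (SE; limma adjusted p = 0.0226). The promoter region of Ring1, which was joined with a start of its neighbour H2-Ke6, changed by −0.28 ± 0.19 (SE, limma adjusted p = 0.343). Read from the highest summit within 1 kb of its own start, Ring1 changed by −0.11 ± 0.16 (SE, limma adjusted p = 0.756). The 2 readings are centred on different medians. The Rnf2 promoter, joined with no neighbour, moved likewise between them, from −0.16 to 0.0042 in log2, so the difference at Ring1 does not reflect H2-Ke6. In all 4 regions both RS libraries lay above both PS libraries, but the regions were picked by this same comparison, so this is no separate evidence.

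The fourth region was the intergenic chr6:99827716-99829327, given under Rybp at 458031 bp from its start. Its values were 5.34 and 5.33 in PS KO and 11.7 and 10.3 in RS KO, a rise of 1.24 ± 0.19 (SE; limma adjusted p = 0.00788). Without PS KO replicate 2 none of these regions passed, and neither did any of the 26558 regions then tested. The Rnf2 upstream region and the Ring1 region also missed the threshold when any other single library was left out (adjusted p = 0.0538 to 0.17 and 0.0829 to 0.159 over the 4 libraries), without centring (0.0738 and 0.0617) and with uncalled libraries at their lowest value (0.0697 and 0.0719). By height times length the Rnf2 regions missed it too (0.124 for the 3′ region and 0.0837 for the upstream one). Without centring the share of calls that were higher over all regions went from 61.5% to 37.9%. Round spermatid promoters were also called in the PS libraries, for example Tnp2 at 32.8 and 9.06 in PS KO against 29.3 and 24.9 in RS KO, and their part in this comparison was not tested.

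**Figure D5:**
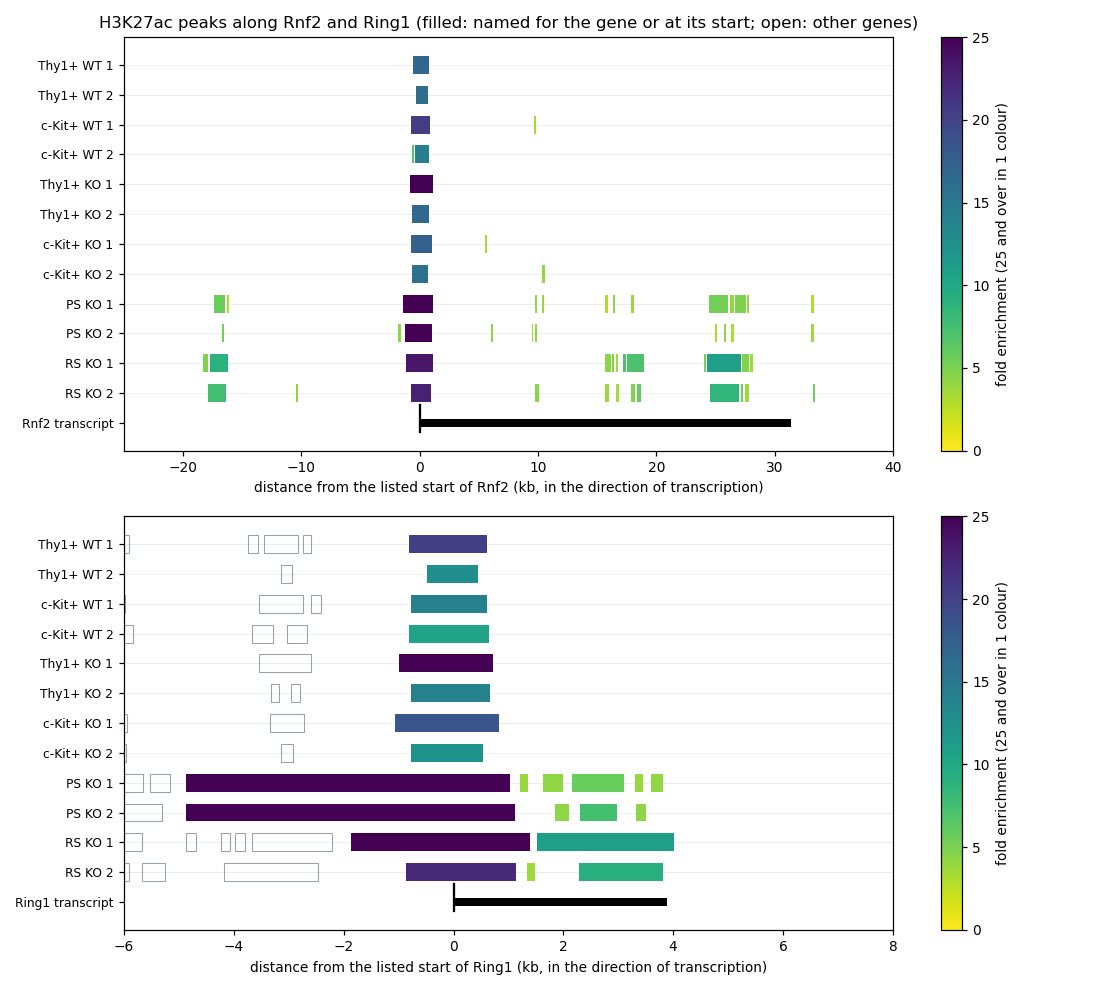
Peaks along Rnf2 (upper panel) and Ring1 (lower panel) in the 12 libraries (rows), by distance in kb from the listed start in the direction of transcription (horizontal axis), coloured by fold enrichment; open boxes are peaks of other genes. Peaks over the 3′ parts of both genes and 16147 bp upstream of Rnf2 appear in PS and RS libraries and in no spermatogonial library.

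Of the 11 tested regions over 1 kb from a start, the other 7 did not pass from PS to RS. Regions called in only some of the PS and RS libraries did not enter this test. With uncalled libraries set at their lowest value, 4 of 35 regions of the genes rose. These were the Rnf2 3′ region and the Rybp region above, and a second region inside Rnf2 (chr1:151481888-151483261; 0.89, limma adjusted p = 0.0437) and another intergenic one given under Rybp (chr6:100124370-100124960; 0.77, adjusted p = 0.0415). The former was called in 1 PS and 2 RS libraries and the latter in 0 PS and 2 RS libraries, so their changes rest on filled values. Cbx2 had 2 regions upstream of its start that were called in all 4 adult libraries and in no spermatogonial one. The nearer, chr11:119006797-119008623 at 14406 bp, had 16.0 and 22.9 in PS KO and 13.3 and 11.4 in RS KO, higher than the Cbx2 promoter itself in each of these libraries. Its change from PS to RS was −0.45 ± 0.22 (SE; limma adjusted p = 0.178). A region inside Bmi1, chr2:18680369-18681772, had 11.8 and 5.33 in PS KO and 9.00 and 6.49 in RS KO, also with no spermatogonial peak.

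The other subunits and partners of these complexes gave a background of 26 genes, of which 20 had a promoter region that could be tested in spermatogonia. Where a gene had more than 1 promoter region in a comparison, the one with the smallest adjusted p was taken. This choice favours calls, whereas the shares over all regions count every region. None of the 20 passed in limma for genotype, for the interaction or for population. From c-Kit+ to PS KO cells, 2 of 23 rose and 1 fell, where 6.83% and 25.1% of all regions did. L3mbtl2, a partner of PCGF6, rose by 1.17 ± 0.19 (SE; limma adjusted p = 0.000741) and Cbx7, a CBX protein of canonical complexes, by 0.94 ± 0.22 (adjusted p = 0.00625), while Pcgf3 fell with a change of −0.54 ± 0.20 (adjusted p = 0.0492). From PS to RS, 1 of 23 rose (12.4% of all regions), a region of Kdm2b shared with another start (0.83 ± 0.20; adjusted p = 0.0198). The promoter window of Kdm2b, read from the highest summit near any of its starts, did not pass (0.26 ± 0.17 SE, limma adjusted p = 0.424). Its values were 19.1 and 17.6 in PS KO and 19.2 and 15.1 in RS KO. Kdm2b has promoter regions at separate places, chr5:122986507-122991399 here and chr5:122898300-122901782 in the test from c-Kit+ to PS. The window is therefore not a reading of the called region alone.

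In the adult against spermatogonial KO comparison 2 of 22 of these genes rose and 4 fell, where 13.8% and 24.2% of all regions within 1 kb of a start did. Cbx7 changed by 1.04 ± 0.15 (SE; limma adjusted p = 7.33e-05) and L3mbtl2 by 0.99 ± 0.14 (adjusted p = 6.98e-05). Pcgf3, the close relative of Pcgf5, changed by −0.66 ± 0.14 (adjusted p = 0.002), Bap1, the catalytic subunit of the enzyme that removes ubiquitin from histone H2A, by −0.50 ± 0.14 (adjusted p = 0.0109), and Cbx6 by −0.50 ± 0.13 (adjusted p = 0.00776). The fourth that fell was Tfdp1. The region of Bap1 was shared with a start of Phf7 and that of Cbx6 with a start of Npcd. In windows at their own starts Bap1 changed by −0.53 and Cbx6 by −0.54 (limma adjusted p = 0.00386 and 0.00227). The Cbx7 promoter was called in 3 of 8 spermatogonial libraries (6.58, 4.26 and 3.50) and in all 4 adult ones (22.1, 34.7, 21.9 and 21.1), and its tested region took some spermatogonial values from peaks over 1 kb from the start. The median change of the 22 was −0.09, against −0.08 over all regions within 1 kb of a start and −0.12 over all regions.

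Pcgf1 had the widest range of group means of the 7 promoters called in every library, 1.05 in centred log2. Among 8687 promoters, those whose centred values over the 12 libraries were most like it were Gabarap (Pearson r = 0.96), a gene of autophagy, Diablo (r = 0.95), a regulator of apoptosis, and 6430548M08Rik (r = 0.93). The 12 libraries share their stage groups and median centring, and the likeness is a description.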

How the data were processed

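The tables held H3K27ac and input peaks, called per library. Per the submitters' processing notes, Bowtie, MACS2 and the mm10 build were used; versions were not given in the sources used here. Per the file headers, the authors deposited for each summit its height (signal), a −log10 p-value and −log10 q-value, and a fold enrichment (ratio). Depth is unknown, and no interval that needs counts was computed.

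Mitochondrial peaks were left out, peaks overlapping by at least 1 bp were merged, and regions called in every library compared were tested on log2 fold enrichment with limma 3.58.1 (R 4.3.3), each library centred on its median, with adjusted p under 0.05 over all regions; a region took each library's highest value. The fitting steps were tested on simulated data. Groups and replicate numbers came from sample titles. Alternatives were other scalings, a replicate block, uncalled libraries at their lowest value, a −log10 q of at least 5, other merging rules, leaving out input regions or single libraries and, added after seeing the data, promoter windows. Genes named were every member, each member region past the threshold or else the promoter of smallest p, and up to 5 listed other genes past it. The members and gene lists were chosen with earlier results of these data known. Tables were made with Python 3.11.15 and pandas 2.3.3.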

Additional observations from a re-analysis of the deposited data

How the results depend on the processing

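No region of the genes passed for genotype, interaction or population under any of the 18 alternatives run for each. In the PS against c-Kit+ comparison, 2 of 9 regions passed, against 0 with quantile normalization or height times length, 1 of 31 with uncalled libraries at their lowest value (a region upstream of Cbx2, neither of the 2), 3 of 8 at a −log10 q of at least 5, 8 without centring, and 0 to 2 when single libraries were left out. In RS against PS, 4 of 20 passed, against 2 without centring, 2 with height times length, 0 of 9 promoter windows (added after seeing the data; none of the 4 is a promoter), and 0 to 3 without single libraries; 0 was reached without PS KO replicate 2, and in the former comparison without c-Kit+ KO replicate 2 or PS KO replicate 2. In the adult comparison 3 of 9 passed, against 7 without centring, 22 of 40 (12 higher, 10 lower) with uncalled libraries at their lowest value, where 7187 of all 59684 regions were higher and 12830 lower, and 3 to 4 without single libraries. Several of the 10 lower regions were called in adult libraries only. The Rnf2 region chr1:151483954-151484242, for example, had peaks in 2 RS, 0 PS and 0 of 8 spermatogonial libraries but changed by −0.46 in log2. Such signs go against the peak calls and rest on filled values. Without centring the sign turned for Bmi1 between genotypes (0.063) and for Pcgf2 between c-Kit+ and PS cells (0.48). The joined region of Pcgf2 in the adult comparison turned negative with a −log10 q of at least 5 (−0.46), an overlap of 50% (−0.50), height times length (−0.032), promoter windows (−0.52) and without single libraries (−0.61 to 0.33), since in the overlap and window readings Psmb3 was no longer joined; for the other settings the cause was not tested. The ratio of adult to spermatogonial peaks over 1 kb from a listed start, those of Pcgf5 included, was 5.04. It was 4.42 at a −log10 q of at least 5, and 2.00 with equal peak numbers.

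Same-numbered libraries deviated together only weakly (correlations of −0.01 to 0.16), so the numbers were not taken as pairs. With a replicate block in the model, the regions of the genes that passed numbered 0, 0, 0, 2, 4 and 3 in the 6 comparisons, as without it.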
